A study of Mus musculus with 6 samples.

Results

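A list of 10 genes that mark macrophages was followed in heart tissue from 3 groups of mice, named C, N and NP. The genes were chosen by name, with earlier results of these data known, and all 10 were found among the 24346 genes of the deposited tables. Adgre1 (F4/80), Cd68, Csf1r, Lyz2 and Itgam (CD11b) are carried by macrophages in general. Mrc1 (CD206), Cd163, Lyve1, Timd4 and Folr2 are best known from macrophages that reside in the heart. The mice were C57BL/6J males, and no transgene or deletion was used. Chow was given to the C group. The N group received the NASH diet, rich in fat, cholesterol and sucrose and supplemented with bile acid. The NP group received the NASH diet to which pemafibrate had been added at 0.1 mg/kg. Pemafibrate is a selective modulator of PPARα, although the series title names PPARγ. RNA of the heart was sequenced with 2 libraries per group, 6 in all. Nothing in the sources says that the 2 libraries of a group came from different mice, so the *P* values measure only the spread between these libraries, which may be technical. The labels give 3 weeks of feeding whereas the methods of the study give a longer time, and the extraction protocol speaks of liver although the tissue is labelled heart. The age of the mice was not given in the sources used here. In the N and NP groups the 2 libraries were supplied under names of different kinds, and the same 2 kinds occurred in both groups. What the names stand for is not stated.

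Resident macrophages of the heart are seeded before birth and largely maintain themselves by division, whereas others arise from circulating monocytes that enter through the receptor Ccr2 and replace them after injury. They depend on signals through Csf1r, take up dying cells and debris, and present scavenger receptors that distinguish the long-lived cells from the newcomers. The transcription factor PU.1, the product of Spi1, opens many macrophage promoters by binding to purine-rich sites.

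The starts of the genes are described first. The 250 bases before each annotated start (RefSeq, GRCm38.p6) were searched for the core GAGGAA on both strands. RefSeq starts were matched for 7 genes, 8 starts in all, and Adgre1, Csf1r and Lyve1 had no entry. The core was present at 3 of 8 starts, in Mrc1, Itgam and Cd68, compared to 23.3% of 32851 starts of all genes. The TATA box, searched as TATAAA on both strands, was present at 0 of 8 starts and at 12.4% of all starts. The windows of 4 genes are given 5′ to 3′ on the strand of the gene, with the core in capitals as GAGGAA or as its complement TTCCTC. Mrc1 (chr2:14229164-14229413, plus strand) holds 3 cores, 180, 167 and 35 bases before the start. Itgam (chr7:128062390-128062639, plus strand) holds 2 cores, 84 and 15 bases before the start. Cd68 (chr11:69666171-69666420, minus strand) holds 1 core, 225 bases before the start. Timd4 (chr11:46810549-46810798, plus strand) holds 0 and is shown as an example without the core. Lyz2, Cd163 and both starts of Folr2, which are not shown, also hold 0.
Mrc1: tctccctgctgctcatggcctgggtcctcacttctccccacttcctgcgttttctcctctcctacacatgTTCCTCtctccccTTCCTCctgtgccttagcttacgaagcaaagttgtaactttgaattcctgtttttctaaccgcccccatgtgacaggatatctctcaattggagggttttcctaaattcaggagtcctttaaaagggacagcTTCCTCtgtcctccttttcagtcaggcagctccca
Itgam: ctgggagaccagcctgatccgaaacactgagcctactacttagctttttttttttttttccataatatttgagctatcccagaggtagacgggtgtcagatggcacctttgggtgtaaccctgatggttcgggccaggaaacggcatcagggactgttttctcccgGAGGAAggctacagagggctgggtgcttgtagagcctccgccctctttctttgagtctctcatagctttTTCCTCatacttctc
Cd68: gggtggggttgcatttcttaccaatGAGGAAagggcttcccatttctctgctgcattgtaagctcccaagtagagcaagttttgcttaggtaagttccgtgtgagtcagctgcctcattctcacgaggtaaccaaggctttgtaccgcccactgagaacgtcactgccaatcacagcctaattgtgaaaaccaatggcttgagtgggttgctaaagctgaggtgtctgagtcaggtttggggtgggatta
Timd4: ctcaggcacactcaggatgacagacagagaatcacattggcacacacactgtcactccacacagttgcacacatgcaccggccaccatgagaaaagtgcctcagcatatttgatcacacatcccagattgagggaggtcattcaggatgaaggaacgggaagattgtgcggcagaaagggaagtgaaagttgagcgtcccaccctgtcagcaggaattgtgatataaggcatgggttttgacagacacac
A match to these letters is a description of the sequence, and binding was not measured here. Its relation to the levels of the genes was not tested.

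The values are FPKM, that is, fragments per kilobase of transcript, scaled to the depth of the library. The depth estimated from the smallest steps of the values was 21400000 to 26100000 reads in the C libraries and 8180000 to 8830000 in the N and NP libraries, so each C library was 2.42 to 3.19 times as deep and depth cannot be told apart from diet in comparisons with the C group. Ventricular genes were high in each library, with a summed FPKM of 46852 to 68269 over 6 genes, so the defining genes of heart muscle were present. Several other lists set libraries apart. For atrial genes the sum was 171 and 307 in the C group and 3647 to 6124 in the N and NP groups. Liver genes such as Alb summed to 376 in C replicate 2, to 26.3 in C replicate 1 and to 1.64 to 5.09 in the others. Adipocyte genes summed to 1.89 to 14.4 in the C libraries and NP replicate 1, and to 69.6 to 172 in the other 3 libraries.

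The levels of the 10 genes spanned a wide range. In the C group, Lyz2, which encodes lysozyme, was the highest (164 ± 6.24 FPKM, mean ± SD, n = 2), and Csf1r (16.9 ± 0.746), Lyve1 (14.2 ± 0.730) and Folr2 (13.997 ± 0.0157) followed. The C libraries of Lyve1 enclosed those of Folr2, so their order is within the spread. Cd163 (11.9 ± 0.361), Mrc1 (7.68 ± 0.0164), Cd68 (6.13 ± 0.0126) and Adgre1 (5.80 ± 0.0206) came next, and Itgam (2.10 ± 0.198) and Timd4 (1.13 ± 0.114) were the lowest. Timd4 thus rested on few reads, an estimated 62 and 44 in the C group, 55 and 49 in the N group, and 12 and 16 in the NP group.

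To ask whether the NASH diet altered the macrophage genes of the heart, the N group was compared to the C group on log2(FPKM + 1), a scale that understates the changes of low genes. Adgre1, Mrc1 and Timd4 were higher in the N group past the threshold of an adjusted *P* of 0.05 (limma, fitted to the 3 groups together, with Benjamini-Hochberg adjustment over 12923 genes). Thus 3 of 10 genes rose, compared to 1.48% of all genes tested, and none fell. In 9 of 10 genes the N libraries did not overlap with the C libraries and were higher, which held for 22.5% of all genes tested, and Cd163 was the exception. The median difference of the 10 genes was 0.70, compared to -0.03 for all genes. All 10 genes passed the filter on low values.

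Among the genes common to macrophages, Adgre1, an adhesion G protein-coupled receptor whose product is the F4/80 antigen, was 5.79 and 5.81 FPKM in the C group and 13.2 and 11.4 in the N group. Both N libraries were about equally high, and the difference was 0.96 ± 0.13 (log2, SE; adjusted *P* = 0.0304). Cd68, a lysosomal glycoprotein, was 6.14 and 6.12 in the C group and 17.3 and 13.1 in the N group. The difference was 1.17 ± 0.21, but it missed the threshold (adjusted *P* = 0.0742), and the N libraries were far apart. It was the largest of the 10 on this scale, whereas the ratio of mean FPKM was 2.48 for Cd68 and 2.66 for Timd4. Lyz2 was 169 and 160 in the C group and 251 and 258 in the N group, with close replicates and a difference of 0.63 ± 0.10 that also fell short (adjusted *P* = 0.0551). Its paralogue Lyz1, which can share reads with it, was 12.7 and 13.4 in the C group and 20.1 and 31.3 in the N group, at levels well below those of Lyz2. Csf1r, the receptor of the macrophage growth factors Csf1 and Il34, was 17.4 and 16.3 in the C group and 33.6 and 23.4 in the N group (0.70 ± 0.20, adjusted *P* = 0.194). Itgam, an integrin shared with neutrophils and NK cells, was 2.24 and 1.96 in the C group and 4.80 and 3.30 in the N group (0.69 ± 0.17, adjusted *P* = 0.152). For both genes N replicate 1 was well above N replicate 2, although the groups did not overlap.

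Among the genes of resident macrophages, Mrc1, the mannose receptor, was 7.69 and 7.67 in the C group and 13.3 and 13.4 in the N group (0.73 ± 0.11, adjusted *P* = 0.0409). The replicates of Mrc1 nearly coincided in both groups. Timd4, a phosphatidylserine receptor for dying cells, was 1.21 and 1.05 in the C group and 3.16 and 2.85 in the N group, a 2.66-fold higher mean (0.91 ± 0.14, adjusted *P* = 0.0424). Folr2, a folate receptor, was 13.99 and 14.01 in the C group and 21.9 and 19.4 in the N group (0.53 ± 0.12, adjusted *P* = 0.121). Lyve1, a hyaluronan receptor that is also carried by lymphatic vessels, was 14.7 and 13.6 in the C group and 20.5 and 17.9 in the N group (0.41 ± 0.12, adjusted *P* = 0.203). Folr2 and Lyve1 were thus higher in both N libraries without passing the test. Cd163, a scavenger receptor for haemoglobin, was 11.6 and 12.1 in the C group, and 16.5 and 9.87 in the N group. Its N libraries fell on either side of the C group, and the interval of the difference ran from -0.61 to 0.81.

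**Figure D1:**
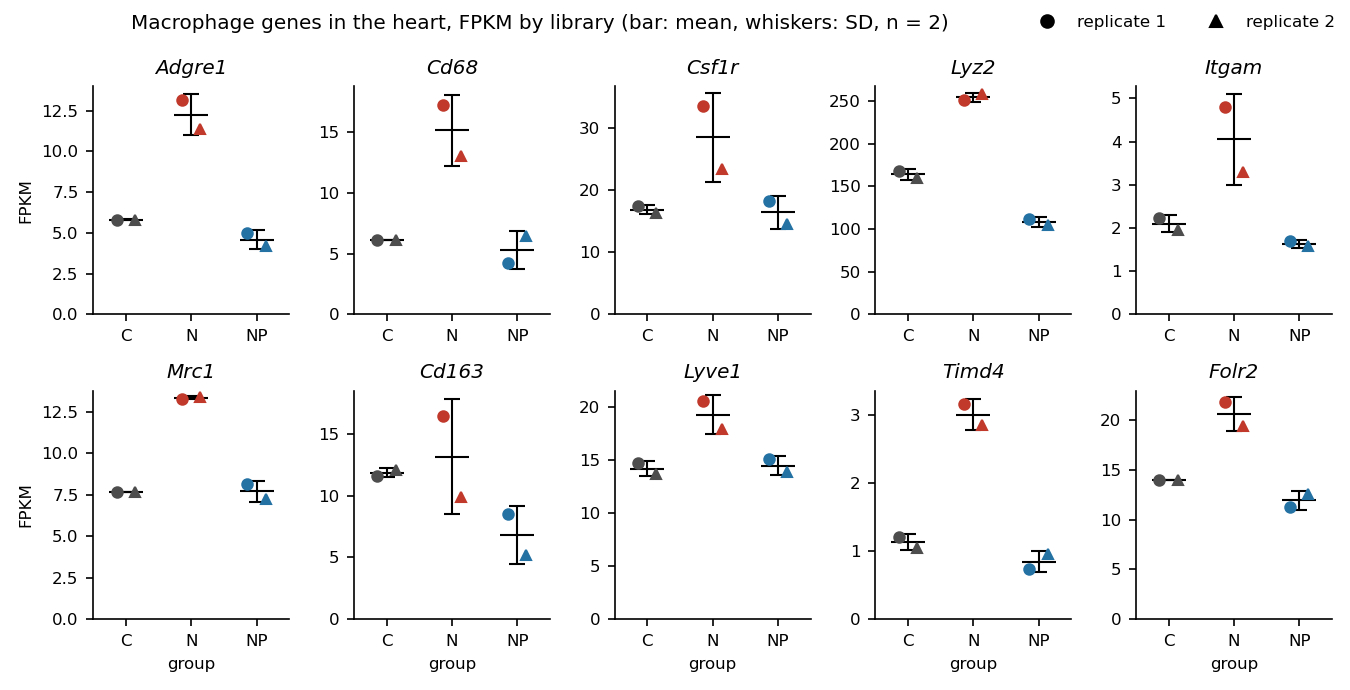
FPKM of the 10 genes (vertical axes, each from 0) in the C, N and NP groups, with circles for replicate 1, triangles for replicate 2, bars for the mean and whiskers for the SD (n = 2). The 2 N libraries lie above the 2 C libraries in 9 genes, and both NP libraries lie below both N libraries in all 10.

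To ask whether pemafibrate altered these genes under the same diet, the NP group was compared to the N group. Adgre1, Cd68, Lyz2, Mrc1 and Timd4 were lower with pemafibrate past the threshold, 5 of 10 genes compared to 1.39% of all genes tested, and none was higher. In 10 of 10 genes both NP libraries lay below both N libraries, which held for 14.7% of all genes tested. The median difference was -0.89, compared to 0.03 for all genes. The N libraries serve in this comparison as well as in that with the C group, so a high value in the N group enters both. In bulk tissue, fewer macrophages and less RNA of these genes per macrophage cannot be told apart.

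Lyz2 showed the smallest *P* value of the 10, with 251 and 258 FPKM in the N group and 112 and 104 in the NP group (-1.23 ± 0.10, adjusted *P* = 0.00519). Adgre1 was 13.2 and 11.4 in the N group and 5.01 and 4.17 in the NP group, where the mean was 0.374 of that in the N group (-1.25 ± 0.13, adjusted *P* = 0.0129). Both NP libraries of these genes were also below both C libraries. Cd68 was 17.3 and 13.1 in the N group and 4.20 and 6.43 in the NP group (-1.37 ± 0.21), and it passed narrowly (adjusted *P* = 0.0499). Itgam was 4.80 and 3.30 in the N group and 1.70 and 1.57 in the NP group (-0.92 ± 0.17, adjusted *P* = 0.104), and Csf1r was 33.6 and 23.4 compared to 18.3 and 14.6 (-0.75 ± 0.20, adjusted *P* = 0.277). The groups of Itgam and Csf1r did not overlap, but neither difference passed.

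Timd4 decreased the most of the resident genes, from 3.16 and 2.85 FPKM in the N group to 0.737 and 0.953 in the NP group, and the NP mean was 0.281 of the N mean (-1.12 ± 0.14, adjusted *P* = 0.0235). Mrc1 was 13.3 and 13.4 in the N group and 8.17 and 7.24 in the NP group (-0.72 ± 0.11, adjusted *P* = 0.0455). Folr2 was 21.9 and 19.4 in the N group and 11.3 and 12.6 in the NP group, just short of the threshold (-0.74 ± 0.12, adjusted *P* = 0.0553). Cd163 was 16.5 and 9.87 in the N group and 8.50 and 5.16 in the NP group. Its libraries varied the most, and the difference was -0.85 ± 0.29 (adjusted *P* = 0.470). Between libraries with the same replicate number it was -0.88 and -0.82, and replicate 1 was the higher library in both groups. Lyve1 was 20.5 and 17.9 in the N group and 15.1 and 13.8 in the NP group, the smallest difference of the 10 (-0.39 ± 0.12, adjusted *P* = 0.391).

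Of the 10 genes, 0 differed between the NP and C groups past the threshold (limma), compared to 0.0387% of all genes tested in either direction. An unadjusted *P* value under 0.05 was reached by 1040 of all 12923 genes tested and by 2 of the 10 genes. These were Lyz2 (-0.60 ± 0.10, unadjusted *P* = 0.00119, adjusted *P* = 0.308) and Cd163 (-0.75 ± 0.29, unadjusted *P* = 0.0415, adjusted *P* = 0.597). In 6 of 10 genes, Adgre1, Lyz2, Itgam, Cd163, Timd4 and Folr2, both NP libraries lay below both C libraries, which held for 23.0% of all genes tested, and the median difference was -0.21. Mrc1 (0.00, with an interval from -0.27 to 0.27), Lyve1 (0.03, from -0.27 to 0.32) and Csf1r (-0.04, from -0.53 to 0.45) lay closest to 0. The interval of Csf1r could hold a difference as large as the 0.41 of Lyve1 between the N and C groups, and a missed threshold does not show that the NP and C groups were equal.

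**Figure D2:**
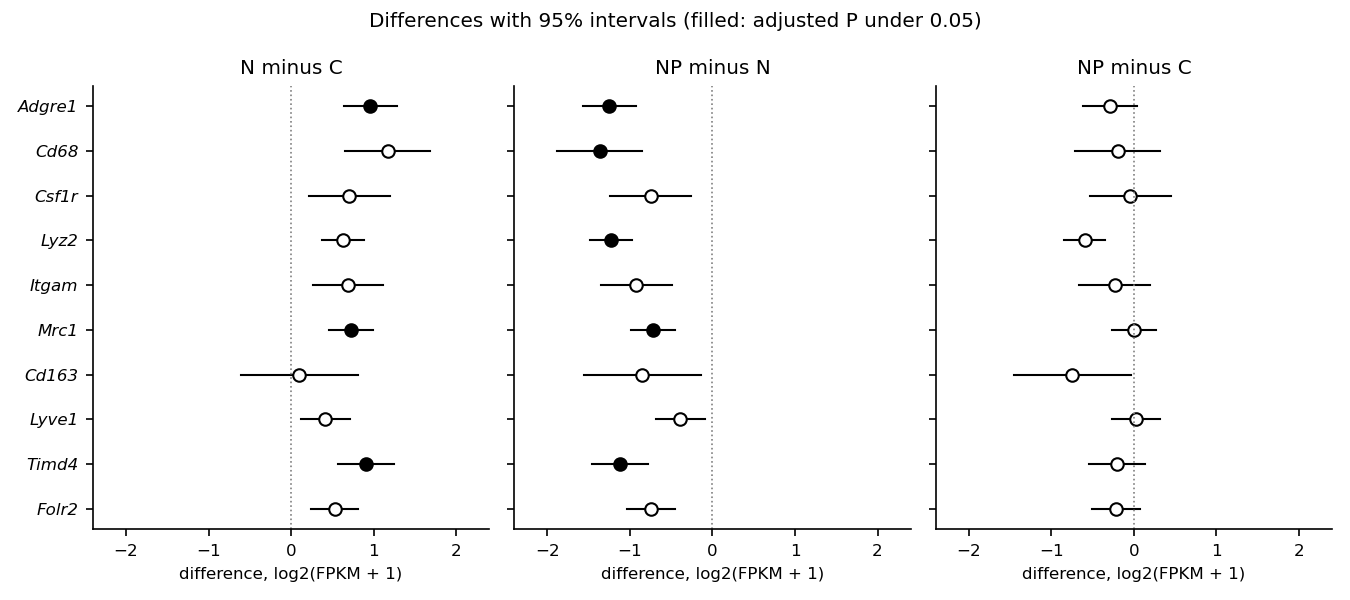
Differences between groups on the log2(FPKM + 1) scale (horizontal axes) for the 10 genes, with 95% intervals from limma and filled points where the adjusted *P* was under 0.05. The filled points are Adgre1, Mrc1 and Timd4 for N minus C, those 3 with Cd68 and Lyz2 for NP minus N, and none for NP minus C.

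To describe the levels of the genes relative to each other, each was divided by Adgre1 in the same library. These ratios are given as values, and differences between them were not tested. Lyve1 per Adgre1 was 2.54 and 2.35 in the C group, 1.56 and 1.58 in the N group, and 3.01 and 3.32 in the NP group. Folr2 per Adgre1 was 2.42 and 2.41 in the C group, 1.66 and 1.71 in the N group, and 2.25 and 3.03 in the NP group. Cd163 per Adgre1 was 2.01 and 2.08 in the C group, 1.25 and 0.868 in the N group, and 1.70 and 1.24 in the NP group. The N libraries were the lowest of the 6 for Lyve1 and Folr2, as they were for Mrc1 (1.01 and 1.18, compared to 1.32 to 1.74 in the other 4) and Csf1r (2.55 and 2.06, compared to 2.81 to 3.66). For Cd163, 1 NP library lay between the N libraries. Timd4 was the exception among the resident genes, with ratios of 0.240 and 0.251 in the N group, above the 0.209 and 0.181 of the C group and the 0.147 and 0.229 of the NP group. The ratio of Cd68 was 1.31 and 1.15 in the N group and ranged from 0.839 to 1.54 in the NP group, whose libraries enclosed all others. Whether the other gene or Adgre1 changed cannot be read from a ratio.

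**Figure D3:**
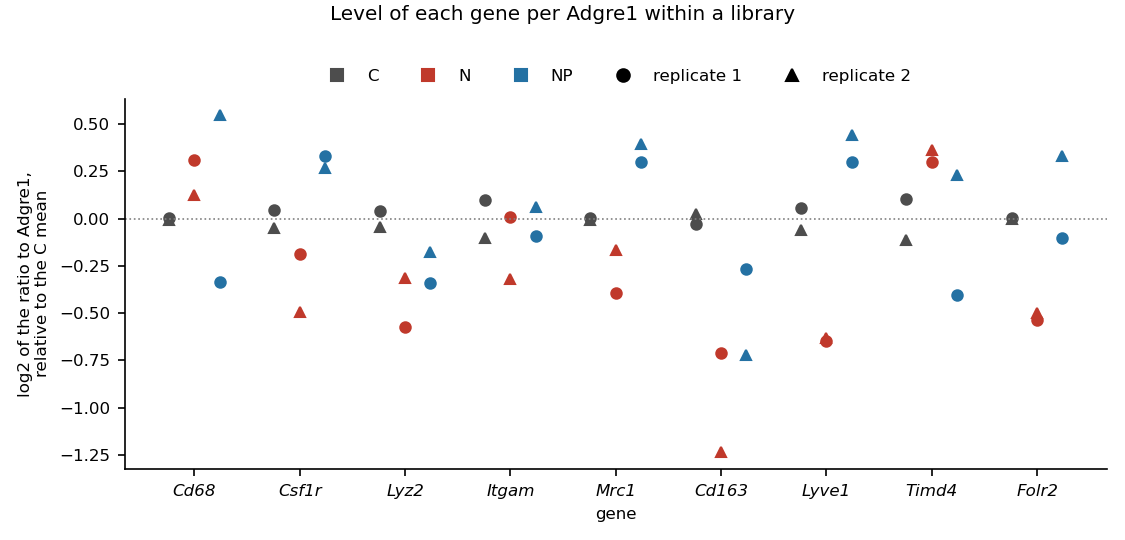
Ratio of each of 9 genes to Adgre1 in the same library (vertical axis, log2, relative to the mean ratio of the C group), with colours for the groups and symbols for the replicates. Both N libraries lie below the other 4 for Csf1r, Mrc1, Lyve1 and Folr2 and above them for Timd4.

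Across the 6 libraries the genes followed each other closely. The 45 pairs had a Pearson r of 0.52 to 0.99 on the log2 scale, with a median of 0.91. The 9 pairs with Cd163 were the lowest (0.52 to 0.75), while the 36 others ranged from 0.80 to 0.99. The points share their libraries and their groups, and these values are a description over 6 libraries. The genes outside the list whose pattern was most like the mean of the 5 general macrophage genes were Apobr (r = 0.999), Ncbp1, Tifab, Selplg and Wdfy4. Apobr, a receptor for apolipoprotein B that macrophages use to take up lipoproteins, was 0.602 and 0.527 FPKM in the C group, 1.67 and 1.25 in the N group and 0.427 and 0.380 in the NP group. Apobr passed the filter on low values only through the N group. Its likeness to genes that are high in N was thus partly fixed in advance. Selplg, a ligand of selectins on leukocytes, was 2.21 and 1.93 in the C group, 8.07 and 5.54 in the N group and 1.66 and 1.52 in the NP group. For the 5 resident genes they were Apobr, Ncbp1, Pik3ap1, Tifab and Wdfy4. With 6 libraries in 3 groups, 166 and 159 genes had an r over 0.95 with these means, so a high r is common.

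Other macrophage genes were taken from lists that were written by name, with earlier results of these data known. Of 20 core macrophage genes, 9 rose on the NASH diet and none fell, with a median difference of 1.22. Of all genes tested, 1.48% rose. With pemafibrate, 14 of the 20 fell relative to the N group and none rose, with a median of -1.45. Of all genes tested, 1.39% fell. Mpeg1, a pore-forming protein of phagocytes, was 4.55 and 4.86 FPKM in the C group, 20.4 and 18.0 in the N group, and 3.80 and 3.26 in the NP group (1.82, adjusted *P* = 0.00292, and -2.16, adjusted *P* = 0.00163). Ctss, a lysosomal protease of antigen presentation, was 21.1 and 20.2 in the C group, 64.6 and 63.3 in the N group, and 14.7 and 16.5 in the NP group (1.58, adjusted *P* = 0.00285, and -1.97, adjusted *P* = 0.00136). Coro1a, an actin regulator of leukocytes in general, moved by 1.63 and -1.76 (adjusted *P* = 0.0152 and 0.0120). The core list thus had larger medians than the 10 identity genes in both comparisons, and that difference was not tested.

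Of 15 further genes of the resident programme, 14 passed the filter and 0 passed the test in either comparison (limma). An unadjusted *P* under 0.05 was reached by 6 for N against C and 8 for NP against N. Over all 12923 genes tested these counts were 1938 and 1039. The medians of the 14 genes were 0.35 and -0.41. In the counts of 6 and 8 resident genes, 1 gene ran the opposite way, namely Ccl24, a chemokine for eosinophils. It was 1.51 and 2.22 FPKM in the C group, 0.630 and 0.846 in the N group, and 2.02 and 1.63 in the NP group (-0.71 and 0.70, adjusted *P* = 0.149 and 0.245). The smallest *P* values belonged to Vsig4, a complement receptor (1.16, adjusted *P* = 0.0825), and to Mgl2, a lectin (-0.94, adjusted *P* = 0.104). Vsig4 was 0.681 and 0.940 in the C group, 2.32 and 3.92 in the N group, and 2.67 and 2.202 in the NP group, where both libraries stayed above the C group. The medians of this list were closer to 0 than those of the 5 resident identity genes (0.53 and -0.74). The list includes Sepp1 and Gas6, with mean FPKM of 260 and 80.3 in the C group, compared to 14.2 for Lyve1. Which cells their RNA came from was not measured, so the medians need not describe resident macrophages.

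Among 14 transcription factors of macrophages, 12 passed the filter. Irf8 and Irf5 drive myeloid development and inflammatory genes, and Maf is typical of resident macrophages. Irf8 (1.21, adjusted *P* = 0.0141), Irf5 (1.08, adjusted *P* = 0.0293) and Maf (0.83, adjusted *P* = 0.0282) rose in the N group. Spi1 (-1.31, adjusted *P* = 0.0499), Irf8 (-1.29, adjusted *P* = 0.0118) and Irf5 (-1.11, adjusted *P* = 0.0291) fell in NP relative to N. Spi1 was 4.15 and 2.82 FPKM in the C group, 9.17 and 7.01 in the N group, and 2.37 and 2.92 in the NP group, the same order of groups as the identity genes. The 8 growth factors and receptors, of which 7 passed the filter, had 0 calls (limma) and medians of 0.61 and -0.69. An unadjusted *P* under 0.05 was reached by 4 and 6 of the 7, compared to 1938 and 1039 of all 12923 genes tested. Csf2rb had the smallest *P* value for N against C (0.74, adjusted *P* = 0.143). It encodes a receptor chain for granulocyte-macrophage colony-stimulating factor and related cytokines. Csf2rb2 was 0.425 and 0.354 FPKM in the C group, 1.82 and 0.897 in N, and 0.373 and 0.223 in NP. Csf2rb2 passed the filter only through the N group, so no test is given for it, and both counts include it.

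Recruited monocytes were followed with 17 genes, of which 10 passed the filter. The list medians were 0.51 for N against C and -0.39 for NP against N. The N group was higher than the C group without overlap in 6 of the 10, compared to 22.5% of all genes tested. The NP group was lower than the N group without overlap in 4 of the 10, compared to 14.7% of all genes tested. For Ly6c1 (0.19 and -0.33), S100a4 (0.10 and -0.45) and Ace (0.02 and 0.13) the groups overlapped in both comparisons. Plac8 (2.54, adjusted *P* = 0.0293) and Lst1 (1.30, adjusted *P* = 0.0315) rose in the N group, and Lst1 (-1.53, adjusted *P* = 0.0208) and Ccr2 (-1.50, adjusted *P* = 0.0291) fell in NP relative to N. Ccr2, the chemokine receptor by which monocytes leave the bone marrow, was 1.29 and 1.15 FPKM in the C group, 3.51 and 2.16 in the N group, and 0.357 and 0.312 in the NP group. Both NP libraries were below both C libraries for this gene. Ly6c2, a defining surface marker of these monocytes, did not pass the filter. Of 18 genes of lipid-associated macrophages, Lgals3, which encodes galectin-3, rose in the N group (2.21, adjusted *P* = 0.00925), and Msr1, a scavenger receptor for modified lipoproteins, fell in NP relative to N (-0.98, adjusted *P* = 0.0310), with list medians of 0.24 and -0.09. Lgals3 was 3.02 and 1.61 in the C group, 14.4 and 13.5 in the N group, and 7.73 and 8.69 in the NP group, between the other groups. Lpl, Cd36 and Ctsd of this list had mean FPKM of 2135, 832 and 770 in the C group, compared to 164 for Lyz2. Which cells their RNA came from was not measured, so the list medians need not describe macrophages. Of 14 activation genes, 7 passed the filter and 0 passed the test in either comparison (limma). An unadjusted *P* under 0.05 was reached by 2 and 3 of them, compared to 1938 and 1039 of all 12923 genes tested. Arg1 was 0.896 and 9.35 FPKM in the C group, 0 and 0.270 in the N group, and 0.286 and 0.0923 in the NP group. The highest value was in C replicate 2, where the liver genes were also highest, and the part of liver RNA in it was not tested. Arg1 passed the filter only through that library, so no test is given for it. The 2 activation genes counted for N against C include it. Il1b was 0.610 and 0.823 FPKM in the C group, 0.912 and 1.23 in the N group, and 0.325 and 0.209 in the NP group. It passed the filter only with the N libraries included, so no test is given for it. The 3 activation genes counted for NP against N include it.

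**Figure D4:**
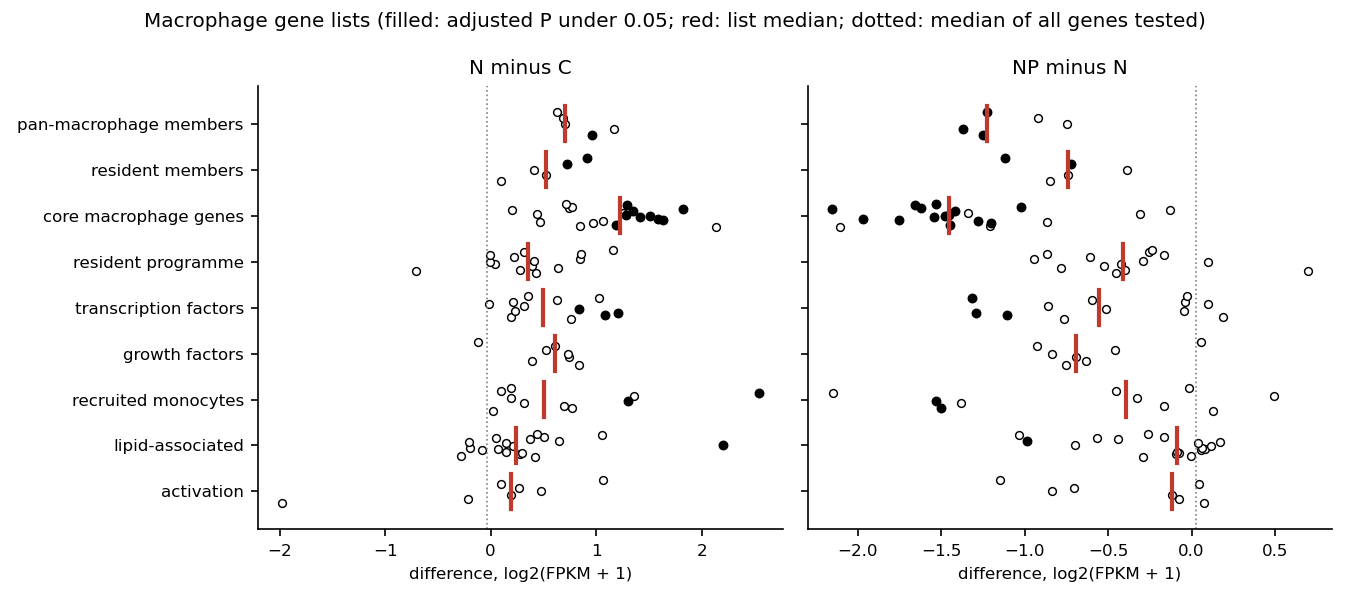
Differences on the log2(FPKM + 1) scale (horizontal axes) of the genes in 9 macrophage lists, with 1 point per gene tested, filled where the adjusted *P* was under 0.05, a red bar at the list median and a dotted line at the median of all genes. Core macrophage genes have medians of 1.22 and -1.45, and the resident programme 0.35 and -0.41.

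Genes of other cells moved in the same libraries. The 11 T and NK cell genes summed to 0.960 to 1.27 FPKM in the C and NP libraries and to 10.9 and 13.2 in the N libraries, with Cd3d at 0 in both NP libraries. Nkg7, a granule protein of cytotoxic cells, was 0.0630 and 0.229 in the C group, 3.58 and 3.40 in the N group, and 0.201 and 0 in the NP group. Gzmb, a granule protease, was 0.157 and 0.0381 in the C group, 1.69 and 2.65 in the N group, and 0.301 and 0 in the NP group. These genes passed the filter only through the N group, so no test is given for them. The 4 B cell genes summed to 0.737 to 1.28 in the C and NP libraries and to 5.02 and 5.12 in the N libraries. The 9 neutrophil genes, which share Itgam and Lyz2 with macrophages, summed to 4.09 and 8.71 in the C group, 10.8 and 14.5 in the N group and 2.70 and 4.11 in the NP group. S100a8 fell in NP relative to N (-1.90, adjusted *P* = 0.0424), while Ngp and Mmp8 were at 0 in both NP libraries and Camp in both N libraries. The 10 interferon response genes summed to 53.7 to 69.0 in the C and NP libraries and to 318 and 376 in the N libraries. Of these, 8 rose for N against C and 8 fell for NP against N, compared to 1.48% and 1.39% of all genes tested. Dendritic cell genes summed to 8.34 and 9.08 in the C group, 9.45 and 11.7 in the N group, and 6.54 and 9.08 in the NP group. The N libraries were the highest, but the lower of them was only slightly above the highest C and NP libraries. Most of each sum came from Zbtb46. Itgax (CD11c), which macrophages can carry as well, was 0.208 and 0.156 in the C group, 1.63 and 0.959 in the N group, and 0.316 and 0.0307 in the NP group. Flt3, Xcr1 and Ccr7, which did not pass the filter, were also highest in the N libraries, whereas Siglech was at 0 in both of them. For Zbtb46, Clec9a and Cd209a the N libraries overlapped with the C libraries. Zbtb46 was 6.12 and 6.54 in the C group and 6.80 and 5.21 in the N group. Clec9a was 1.44 and 1.31 in the C group and 1.92 and 1.13 in the N group. The median of the dendritic cell genes tested was 0.07 for N against C and -0.17 for NP against N. It includes Itgax, which passed the filter only through the N group. The part of these cells and of the interferon response in the differences of the macrophage genes was not tested.

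Some lists did not follow this pattern. Genes of lymphatic endothelium, which carries Lyve1 and Mrc1, summed to 45.9 and 46.8 FPKM in the C group, 35.6 and 51.4 in the N group and 38.4 and 45.2 in the NP group, so that the N libraries lay on both sides of all others. Mast cell and eosinophil genes summed to 4.12 to 8.77, with Epx at 0 throughout. Cma1, a member of this list, was highest in the N group. It was 1.09 and 0.797 FPKM in the C group, 2.49 and 2.37 in N, and 1.26 and 1.89 in NP. Its differences did not pass (limma, 0.82, adjusted *P* = 0.106, and -0.42, adjusted *P* = 0.615). Liver macrophages, known as Kupffer cells, also carry Timd4 and Cd163. Their markers Clec4f and Cd5l, which did not pass the filter, were 0.138 and 0.0414 FPKM in C replicate 1 and 0.398 and 0.452 in C replicate 2, where liver genes were the highest. Timd4 was 1.21 and Cd163 11.6 in C replicate 1, and 1.05 and 12.1 in C replicate 2. Atrial genes were high in both the N and NP groups, and adipocyte genes were lower in NP replicate 1 (14.4) than in NP replicate 2 (69.6). The part of liver, atrial and adipose tissue in the differences of the macrophage genes was not tested.

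**Figure D5:**
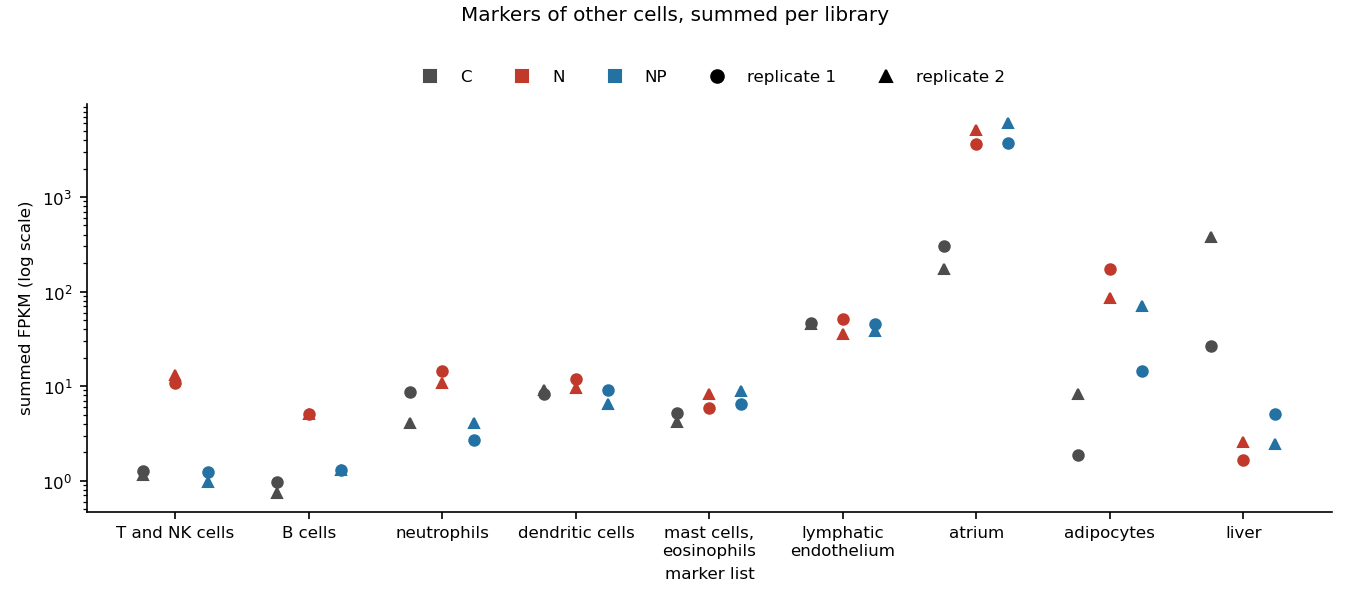
Summed FPKM of marker lists of other cells and tissues (vertical axis, log scale) per library, with colours for the groups and symbols for the replicates. T and NK cell and B cell genes are high in both N libraries alone, atrial genes are high in the N and NP libraries, and liver genes are highest in C replicate 2.

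Between libraries that carry the same replicate number, NP minus N was below 0 for 10 of 10 genes in replicate 1 (-1.81 to -0.42) and in replicate 2 (-1.30 to -0.35). N minus C was above 0 for 10 of 10 genes in replicate 1 (0.46 to 1.36) and for 9 of 10 in replicate 2, where Cd163 was at -0.27. Which genes passed the test was less stable than these directions. When 1 library was left out, 0 of 10 genes passed for N against C in each of 6 cases, and for NP against N only Lyz2 passed, in 5 of 6 cases (adjusted *P* = 0.0315 to 0.0561, with the highest value without NP replicate 2). For N against C, 0 of 10 genes also passed with no filter on low values and with only these 2 groups in the model. Reads of Csf1r, Itgam and Folr2 may also include those of the overlapping genes Hmgxb3, Gm49368 and Gm10602, since it is not stated whether strand was used in counting.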

How the data were processed

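Heart RNA of the C, N and NP groups was analysed as 6 libraries, grouped by the diet and dose in the sample labels. The authors mapped 75-base single-end reads of a stranded mRNA kit to mm10 with TopHat2 2.0.13, Bowtie2 2.2.3 and SAMtools 0.1.19, and computed the deposited FPKM with Cufflinks 2.2.1 (versions per the submitters' processing notes). These values are normalized for transcript length and depth, and read counts were not used here. After a filter at a mean FPKM of 0.5, which kept 12923 of 24346 genes, log2(FPKM + 1) was fitted without rescaling by limma 3.58.1 in R 4.3.3, with 3 groups, 3 residual degrees of freedom and moderation that follows the mean level. Benjamini-Hochberg adjustment ran over all genes tested (threshold 0.05).

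The 10 genes, 21 lists of other genes and the rule for naming genes were chosen with earlier results of these data known. The rule names the 10 genes, up to 3 genes per list that passed with the largest change in each of the N to C and NP to N comparisons, or else the gene with the smallest *P* value, and the 5 genes most alike. Ly6c2, Epx, Clec4f, Cd5l, Alb, Ccl24, Flt3, Xcr1, Ccr7, Zbtb46, Clec9a, Cd209a, Ly6c1, S100a4, Ace, Lpl, Cd36, Ctsd, Sepp1, Gas6 and genes at 0 were named after their values were seen. Sequences are RefSeq promoters of GRCm38.p6.

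Depth was estimated from 3292 genes with 1 transcript in GENCODE M21, less 200 bases. Of values of up to 5 reads, 72.5% to 76.7% lay within 0.1 of a whole read, too few for reads to be recovered and a count test run. In simulated data for the N to C comparison with 200 of 12923 genes changed, the test recovered 86% of changes of 2 and 58% of changes of 1 on the log2 scale, and called 7 others. Alternatives covered scaling, filter, pseudocount, design, a replicate block and leaving out each library.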

Additional observations from a re-analysis of the deposited data

How the results depend on the processing

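Each difference was recomputed under 16 alternatives, of which a replicate block that leaves out the C libraries was chosen after seeing the data. For N against C, 3 of 10 genes passed the test, compared to 0 with no filter on low values, 0 with only the groups compared in the model, 5 after scaling to the same total, 9 with that replicate block, and 0 to 0 when a library was left out. Between the NP and N groups, 5 passed, compared to 3 without a trend, 3 with no filter, 1 with only the groups compared in the model, 9 with that block, and 0 to 1 when a library was left out. Between the NP and C groups, 0 passed, compared to 1 (Cd163) with that block and 0 under the 15 others. For NP against N that block added Csf1r, Itgam, Cd163 and Folr2 to the 5 genes. With a replicate block over all groups 4 passed in each of the first 2 comparisons. The replicate numbers were not taken to pair the samples, because nothing in the labels says that they do. The deviations of same-numbered libraries correlated at 0.05 between C and N and 0.12 between C and NP. Between N and NP they correlated at 0.46, which the main test does not take into account. No difference between the NP and N groups changed sign. For N against C, Cd163 turned to -0.24 without N replicate 1, in a range of -0.24 to 0.44 over the libraries left out. For NP against C, differences near 0 changed sign. Over the libraries left out, Cd68 ranged from -0.45 to 0.0597, Csf1r from -0.20 to 0.11, Mrc1 from -0.0742 to 0.0785 and Lyve1 from -0.0316 to 0.0836. Csf1r was also 0.11 after scaling to the same total, and Mrc1 was -0.00663 with quantile normalization and -0.000975 after scaling to the same median. Scaling to the same total moved the median of all genes between the N and C groups from -0.03 to 0.12. With a library left out fewer samples set the spread, and the cause of the other changes was not tested. Timd4 rested on 12 to 62 reads per library.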
